A study of Mus musculus with 24 samples.

Results

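The 31 genes described here encode enzymes and membrane proteins of the lysosome, with 1 transcription factor, Tfeb. They were listed by name and function with earlier results of these data known, though the rule uses no measured value, and all 31 were found among the 34436 rows of the count table and passed the filter on low counts. By role they are 11 cathepsins and other peptidases, 7 glycosidases, 4 lipid hydrolases and activators, 6 membrane proteins and channels, 2 subunits of the proton pump, and Tfeb. The mice were wild type, of the C57BL/6 strain, were 8 to 10 weeks old when their diet began and ate it for 8 weeks, and RNA came from the whole liver. The groups were NC (normal chow, 4 libraries), HS (high sucrose, 5), HS_Chol (sucrose and 2% cholesterol, 3), CA (cholic acid, 4) and Chol_CA (2% cholesterol and cholic acid, 4). All groups shared genotype and strain, and the diet of high sucrose, cholesterol and cholic acid was not analysed here. The comparisons ask how each diet moved the lysosomal genes and which of the changes moved with markers of macrophages.

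The lysosome is the acidic compartment in which cells digest proteins, sugar chains and lipids taken up from outside or delivered by autophagy. A proton pump, the V-ATPase, acidifies it, and cathepsins, glycosidases and lipases work in it. Many of its genes carry a short motif near their start site, the CLEAR element, which TFEB and its relatives bind. Every liver cell has lysosomes, but macrophages, in liver chiefly Kupffer cells and incoming monocytes, are very rich in them, and some members, such as Ctss and Laptm5, are known mainly from blood cells. In RNA from a whole tissue, more cells of a type and more RNA per cell cannot be told apart.

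The libraries held between 6110484 and 10244277 reads, with a median of 7639777. Levels are given as CPM, reads per 1000000 after scaling by library size. Libraries are named by diet and by their number in the table, which starts at 0. In 8 libraries longer genes had lower levels than in the other 12, and these 8 (a negative length trend) included 2 of the 4 Chol_CA, 1 of the 4 NC, 1 of the 4 CA, 3 of the 5 HS and 1 of the 3 HS_Chol libraries. Reads from mitochondrial light-strand tRNA genes numbered 673 to 900 per 1000000 heavy-strand mRNA reads in HS_Chol and 8.95 to 83.4 in the other 17 libraries, so a comparison with HS_Chol cannot be told apart from a difference in how those libraries were made or counted. Hepatocyte markers, among them Alb and Ttr, summed to 71120 CPM or more in every library, above the sum of every other marker list.

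RefSeq promoters (GRCm38.p6, 250 bases before to 50 bases after the start) were matched for 28 members and are shown for 5 genes that stand for the patterns below. Ctsd and Gla hold the motif and rose on Chol_CA, Mcoln1 and Lamp1 hold it and were not called, and Ctss had the largest change and lacks it. The regions lie at chr7:142387778-142388077, minus strand (Ctsd), chrX:134600956-134601255, minus strand (Gla), chr8:3500269-3500568, plus strand (Mcoln1), chr8:13158911-13159210, plus strand (Lamp1) and chr3:95526536-95526835, plus strand (Ctss). Capitals mark the E-box CACGTG, the core of the CLEAR element, or its longer form TCACGTGA; both read the same on either strand, and the longer form contains the shorter.
Ctsd: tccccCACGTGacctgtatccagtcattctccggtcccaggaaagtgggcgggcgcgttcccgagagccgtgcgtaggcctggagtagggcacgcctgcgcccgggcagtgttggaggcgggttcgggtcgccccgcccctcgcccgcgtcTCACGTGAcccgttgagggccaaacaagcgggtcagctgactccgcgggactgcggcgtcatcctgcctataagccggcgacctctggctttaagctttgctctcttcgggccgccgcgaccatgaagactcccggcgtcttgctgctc
Gla: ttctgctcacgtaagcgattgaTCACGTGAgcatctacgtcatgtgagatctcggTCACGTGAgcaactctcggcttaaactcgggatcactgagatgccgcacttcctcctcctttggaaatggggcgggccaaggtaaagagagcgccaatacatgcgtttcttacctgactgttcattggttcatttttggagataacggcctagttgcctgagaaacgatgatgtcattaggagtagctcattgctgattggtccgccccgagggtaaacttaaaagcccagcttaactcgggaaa
Mcoln1: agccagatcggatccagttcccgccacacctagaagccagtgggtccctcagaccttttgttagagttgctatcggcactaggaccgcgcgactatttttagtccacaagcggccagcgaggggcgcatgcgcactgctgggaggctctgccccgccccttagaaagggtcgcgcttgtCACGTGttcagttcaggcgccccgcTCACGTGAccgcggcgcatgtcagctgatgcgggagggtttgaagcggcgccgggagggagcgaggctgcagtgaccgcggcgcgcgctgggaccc
Lamp1: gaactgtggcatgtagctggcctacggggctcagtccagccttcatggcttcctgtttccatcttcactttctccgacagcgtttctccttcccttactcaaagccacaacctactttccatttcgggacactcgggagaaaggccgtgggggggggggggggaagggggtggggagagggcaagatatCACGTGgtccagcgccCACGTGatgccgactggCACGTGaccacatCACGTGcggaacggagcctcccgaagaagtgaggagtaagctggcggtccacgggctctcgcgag
Ctss: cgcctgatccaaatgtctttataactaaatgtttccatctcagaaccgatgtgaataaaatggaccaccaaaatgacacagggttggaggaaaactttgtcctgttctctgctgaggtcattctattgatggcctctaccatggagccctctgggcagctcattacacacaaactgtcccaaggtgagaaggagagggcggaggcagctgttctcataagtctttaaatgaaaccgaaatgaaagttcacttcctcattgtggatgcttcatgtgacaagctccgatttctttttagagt

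The E-box CACGTG was found in the promoters of 11 of the 28 members (39.3%), against 8.09% of the 27025 genes with a promoter. The longer form TCACGTGA was found in 6 members (21.4%; 1.12% of all genes): Atp6v0d1, Atp6v1a, Ctsa, Ctsd, Gla and Mcoln1. Of 54 other lysosomal genes with a promoter, 20.4% held the short form and 9.26% the longer one. The 10-base CLEAR palindrome, which contains both, was in 0 members and in 0.37% of all genes. Lamp1 held 4 copies of the short form, the most of any member.

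In chow livers the members ranged widely in abundance. Per length (RPKM, reads per 1000 exonic bases and 1000000 reads), the mean level was highest for Lamp1, the main glycoprotein of the lysosomal membrane (222 ± 38.4, SD, n = 4), followed by the carboxypeptidase Ctsz (175), prosaposin Psap (165), the aspartic protease Ctsd (156) and the cysteine protease Ctsb (117). Lowest were Tfeb (1.29), the tetraspanin Cd63 (0.466) and Ctsk, a collagen-degrading cathepsin (0.224). The length counts every annotated exon of a gene, so this order depends on the annotation. By CPM, Lamp2 (732.7) and Ctsb (708.5) stood above Lamp1 (593.6) in NC, and Ctsb (1420) above Psap (1162) in Chol_CA. On Chol_CA the order per length changed. Psap stood first (423), and the elastin-degrading Ctss moved from rank 21 in chow, at 10.3, to rank 4, at 272. Laptm5, a lysosomal membrane protein of blood cells, moved from rank 27 (2.97) to rank 12 (42.4).

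The 31 members changed mostly on cholic acid diets. Each gene was tested with edgeR's quasi-likelihood test over 12595 genes and called at a Benjamini-Hochberg adjusted p under 0.05. All adjusted p-values below come from it. On Chol_CA, 17 members were higher and 2 lower than on chow, where 15.0% of all genes tested were higher and 9.35% lower. Of the 17, Ctsk passed the filter on low counts only through the Chol_CA libraries. On CA, 5 were higher and 0 lower (5.22% and 4.61% of all genes). On HS no member was called in either direction (0.214% and 0.437% of all genes), while 1 was higher and 2 lower at an unadjusted p under 0.05. On HS_Chol none was called either (1.71% and 0.564%), while 3 were higher and 1 lower unadjusted. The median log2 fold change of the members against chow was 0.56 on Chol_CA, 0.13 on CA, 0.02 on HS_Chol and -0.07 on HS, and that of all genes lay between 0.00 and 0.02. The 4 comparisons share the chow libraries.

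**Figure D1:**
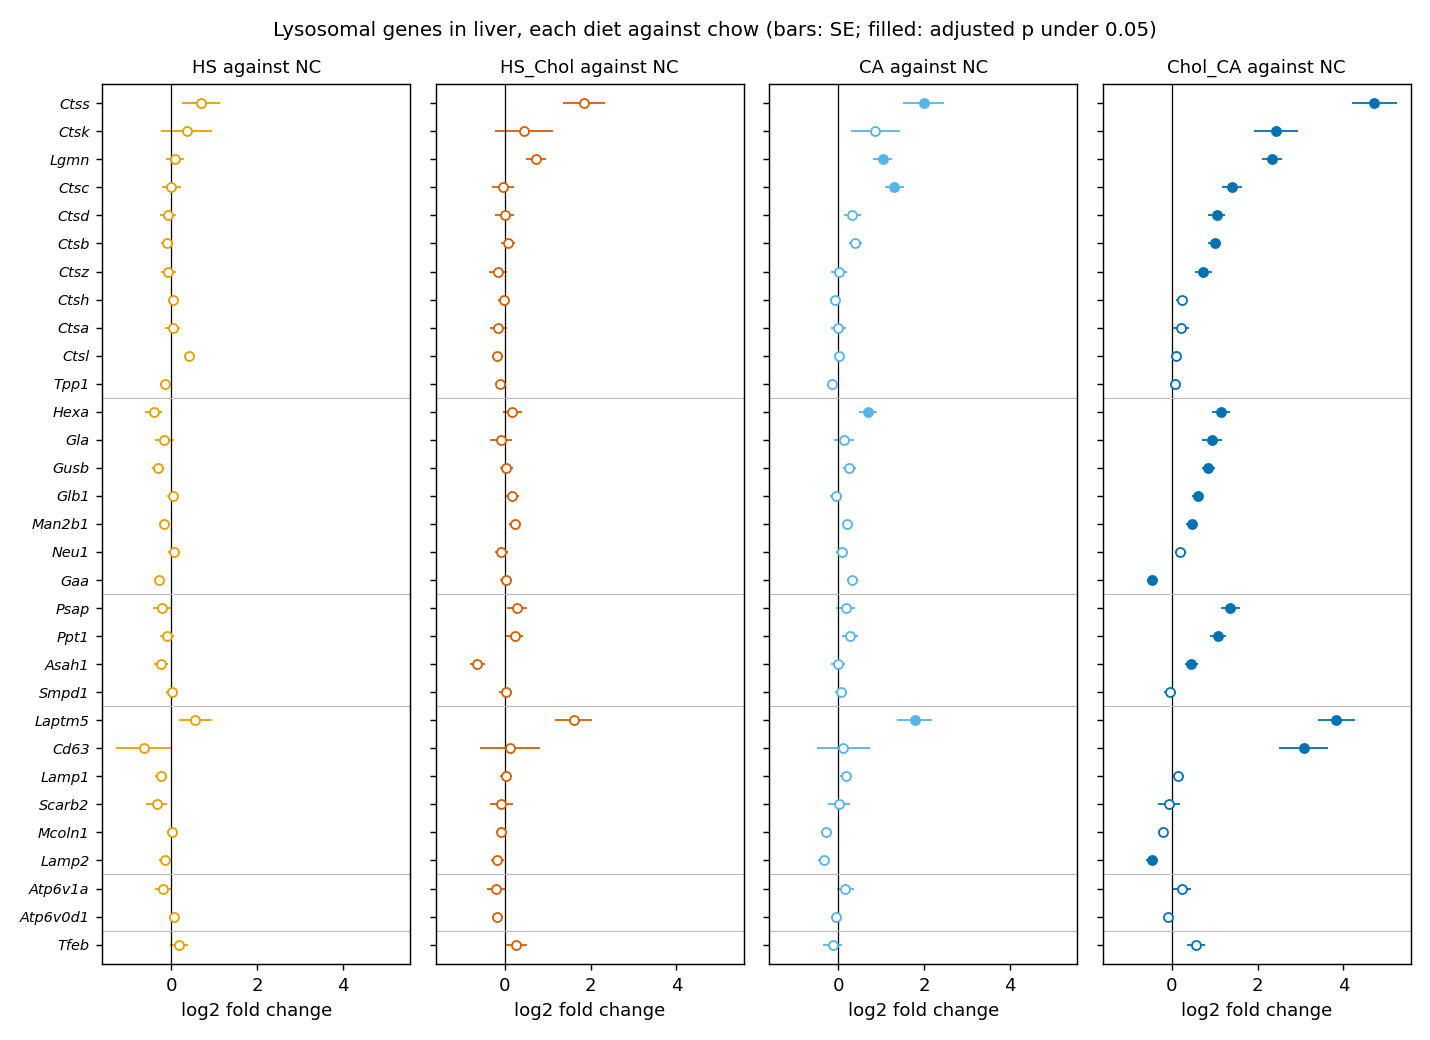
Log2 fold change against chow of the 31 lysosomal genes (rows, grouped by role) on 4 diets (panels), with the standard error as bars and filled points for an adjusted p under 0.05. Filled points number 0 on HS, 0 on HS_Chol, 5 on CA and 19 on Chol_CA.

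Among the 11 peptidases, 7 were higher on Chol_CA than on chow and none lower (15.0% and 9.35% of all genes). Ctss (chr3:95526786-95556403 in GRCm38) had the largest change of all members. It read 9.45, 12.2, 10.6 and 23.9 CPM in the NC libraries, 91.3, 54.2, 25.2 and 52.8 in CA, and 491, 643, 188 and 157 in Chol_CA. The Chol_CA libraries lay far above every other, 18.6 to 29.7 CPM on HS and 26.6 to 84.3 on HS_Chol included. The log2 fold change on Chol_CA was 4.72 ± 0.52 (SE), a factor of 26.3, with adjusted p = 2.09e-06.

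Lgmn (chr12:102394084-102439813) encodes legumain, an asparaginyl endopeptidase that activates other lysosomal proteases. Its level was 43.7, 42.2, 44.6 and 42.2 CPM in NC, 108, 94.2, 61.4 and 92.7 in CA, and 243, 279, 193 and 154 in Chol_CA. These 3 groups did not overlap, while HS_Chol (55.6 to 89.3 CPM) lay above NC and overlapped CA. The log2 fold change on Chol_CA was 2.33 ± 0.23 (adjusted p = 6.64e-07), the smallest adjusted p among the members in that comparison.

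Ctsc (chr7:88278085-88310888), or dipeptidyl peptidase I, activates the granule proteases of neutrophils and other white blood cells. Its level was 76.6, 111, 116 and 55.7 CPM in NC, 193, 251, 214 and 229 in CA and 258, 312, 194 and 182 in Chol_CA. CA and Chol_CA overlapped each other, and both lay above NC, HS (66.9 to 116) and HS_Chol (76.6 to 108). The log2 fold change against chow was 1.31 ± 0.23 on CA (adjusted p = 0.000953) and 1.40 ± 0.23 on Chol_CA (adjusted p = 0.000132).

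Among the more abundant cathepsins, Ctsb and Ctsd rose on Chol_CA, by less than Ctsc, while Ctsl and Ctsh were not called. Ctsb, a general endopeptidase, read 701, 675, 725 and 733 CPM in NC and 1586, 1931, 1118 and 1046 in Chol_CA, with a log2 fold change of 1.00 ± 0.16 (adjusted p = 6.78e-05). Ctsd, whose promoter with 2 E-boxes is shown above, read 413, 357, 365 and 336 CPM in NC and 841, 1098, 592 and 523 in Chol_CA, a log2 fold change of 1.05 ± 0.20 (adjusted p = 0.000581). In CA, Ctsd spread from 329 to 617 CPM and Ctsb from 818 to 1023, and neither was called against chow. Within Chol_CA the libraries fell into 2 pairs for most of these genes: the 2 with a negative length trend (the first 2 values of each list) stood above the other 2.

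The weakly expressed Ctsk rested on few reads, 10 in all over the NC libraries and 68 over the Chol_CA libraries. It read 0.143, 0.138, 0.648 and 0.426 CPM in NC and 2.52, 2.18, 1.76 and 1.30 in Chol_CA, which did not overlap (log2 fold change 2.43 ± 0.51, adjusted p = 0.00125). Outside Chol_CA only CA_0 (1.41 CPM) read above 0.648 CPM. Ctsk thus passed the filter on low counts only through the Chol_CA libraries, so its call and its separation are not independent of that filter. Ctsz rose from 252 ± 14.8 to 421 ± 167 CPM (SD, n = 4 each; log2 fold change 0.74 ± 0.19, adjusted p = 0.00726). Over the 12 libraries with a positive length trend alone, the change of Ctsz was 0.26 with adjusted p = 0.101. Ctsa (protective protein of neuraminidase), Ctsh (an aminopeptidase), Ctsl (a major endopeptidase) and Tpp1 (tripeptidyl peptidase) changed by 0.08 to 0.23 on the log2 scale and did not pass the test.

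The glycosidases divided on Chol_CA, with 5 of the 7 higher, 1 lower and 1 not called (15.0% of all genes were higher and 9.35% lower). Hexa, the alpha subunit of beta-hexosaminidase, read 51.4, 43.6, 55.2 and 51.1 CPM in NC and 118, 164, 89.5 and 70.2 in Chol_CA (log2 fold change 1.14 ± 0.21, adjusted p = 0.000465). Gla, alpha-galactosidase A, was weaker and read 5.16, 4.02, 6.09 and 4.97 CPM in NC and 10.9, 13.9, 7.03 and 7.36 in Chol_CA (0.94 ± 0.23, adjusted p = 0.00394). In both genes every Chol_CA library lay above every NC library. Smaller rises were called for beta-glucuronidase Gusb (0.85 ± 0.15), beta-galactosidase Glb1 (0.61 ± 0.13) and alpha-mannosidase Man2b1 (0.47 ± 0.13). In the libraries with a positive length trend, the changes of Gla (0.48, adjusted p = 0.184) and Glb1 (0.35, adjusted p = 0.0883) did not pass. The sialidase Neu1 was not called (0.20 ± 0.13).

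Gaa, acid alpha-glucosidase, which degrades glycogen in the lysosome, went the other way. Its level was 119 to 152 CPM in NC and 92.5 to 110 in Chol_CA, which did not overlap, and it fell by 0.45 ± 0.13 on the log2 scale (adjusted p = 0.0109). Fitted on the NC and Chol_CA libraries alone, the adjusted p was 0.0586. In CA it stood between 132 and 209 CPM, above every Chol_CA library. The HS libraries, at 105.9 to 121.4 CPM, overlapped those of Chol_CA.

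Of the lipid hydrolases and activators, 3 of 4 were higher on Chol_CA (15.0% of all genes). Psap, the precursor of the saposins that present sphingolipids to their hydrolases, read 463, 474, 485 and 385 CPM in NC, 461, 483, 503 and 591 in CA and 1387, 1764, 814 and 682 in Chol_CA. NC and CA overlapped, and Chol_CA lay above both (log2 fold change 1.36 ± 0.22 against chow, adjusted p = 0.00011). Ppt1, which removes palmitate from proteins, read 29.4, 29.5, 28.8 and 30.4 CPM in NC and 76.6, 81.1, 47.1 and 45.7 in Chol_CA (1.08 ± 0.18, adjusted p = 0.000137). The acid ceramidase Asah1 was near the threshold (0.46 ± 0.16, adjusted p = 0.0431) and was lost without either of 2 NC libraries (NC_0, adjusted p = 0.111, or NC_1, 0.0802) or either of 2 Chol_CA libraries (Chol_CA_0, 0.175, or Chol_CA_1, 0.114). The acid sphingomyelinase Smpd1 was not called (-0.05 ± 0.14).

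The 6 membrane proteins moved least alike. Laptm5 (chr4:130913125-130936141) read 6.16, 11.6, 10.1 and 17 CPM in NC, 54.4, 42.7, 22.6 and 34.5 in CA and 175, 273, 101 and 93.5 in Chol_CA. These 3 groups did not overlap, while HS_Chol (15.8 to 56.1 CPM) overlapped NC and CA. The log2 fold change of Laptm5 on Chol_CA was 3.84 ± 0.43 (adjusted p = 2.63e-06). Cd63, which marks late endosomes and lysosomes, read 0.859, 1.11, 2.21 and 2.70 CPM in NC, 2.47, 1.29, 1.09 and 2.66 in CA and 19.2, 30.7, 5.67 and 3.46 in Chol_CA (3.08 ± 0.57, adjusted p = 0.000384; 2.43 without Chol_CA_1). A processed copy of Cd63, Cd63-ps, is annotated, so reads may be split between the copies and its level is uncertain. Lamp2, the other main membrane glycoprotein and a receptor of chaperone-mediated autophagy, fell by 0.46 ± 0.14 (adjusted p = 0.0229). Its level was 623 to 786 CPM in NC and 377 to 600 in Chol_CA. The fall of Lamp2 was lost without Chol_CA_1 (adjusted p = 0.0862) or without NC_0 (0.0674), NC_1 (0.0516) or NC_2 (0.0634).

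Lamp1 (0.14 ± 0.14), the calcium channel Mcoln1 (-0.20 ± 0.11) and the glucocerebrosidase receptor Scarb2 (-0.06 ± 0.25) were not called on Chol_CA, nor were the pump subunits Atp6v0d1 (-0.08 ± 0.11) and Atp6v1a (0.24 ± 0.20). Tfeb itself read 5.58, 8.31, 7.91 and 7.53 CPM in NC, 8.35, 7.65, 5.72 and 5.21 in CA and 8.61, 14.7, 10.6 and 9.53 in Chol_CA. The Chol_CA libraries all lay above NC and CA, though only narrowly above the highest of them. They overlapped HS (7.05 to 11.2 CPM) and HS_Chol (7.40 to 10.4 CPM). Against chow the log2 fold change of 0.56 ± 0.21 did not pass the test (adjusted p = 0.0616). Read against the promoters, 4 of the 11 members with an E-box were higher and 1 lower on Chol_CA, with a median of 0.22. Of the 17 without one, 11 were higher and 1 lower, with a median of 0.85. Across all genes, 15.0% were higher and 9.35% lower. The members with the largest changes, Ctss, Laptm5, Cd63 and Ctsk, are among the 17. The difference between the groups was not tested. Reads of 7 members may include those of a gene that overlaps them on the opposite strand, since the strand counted is not given; 4 of these (Ctsb, Ctsz, Hexa and Ppt1) were among the members higher on Chol_CA.

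**Figure D2:**
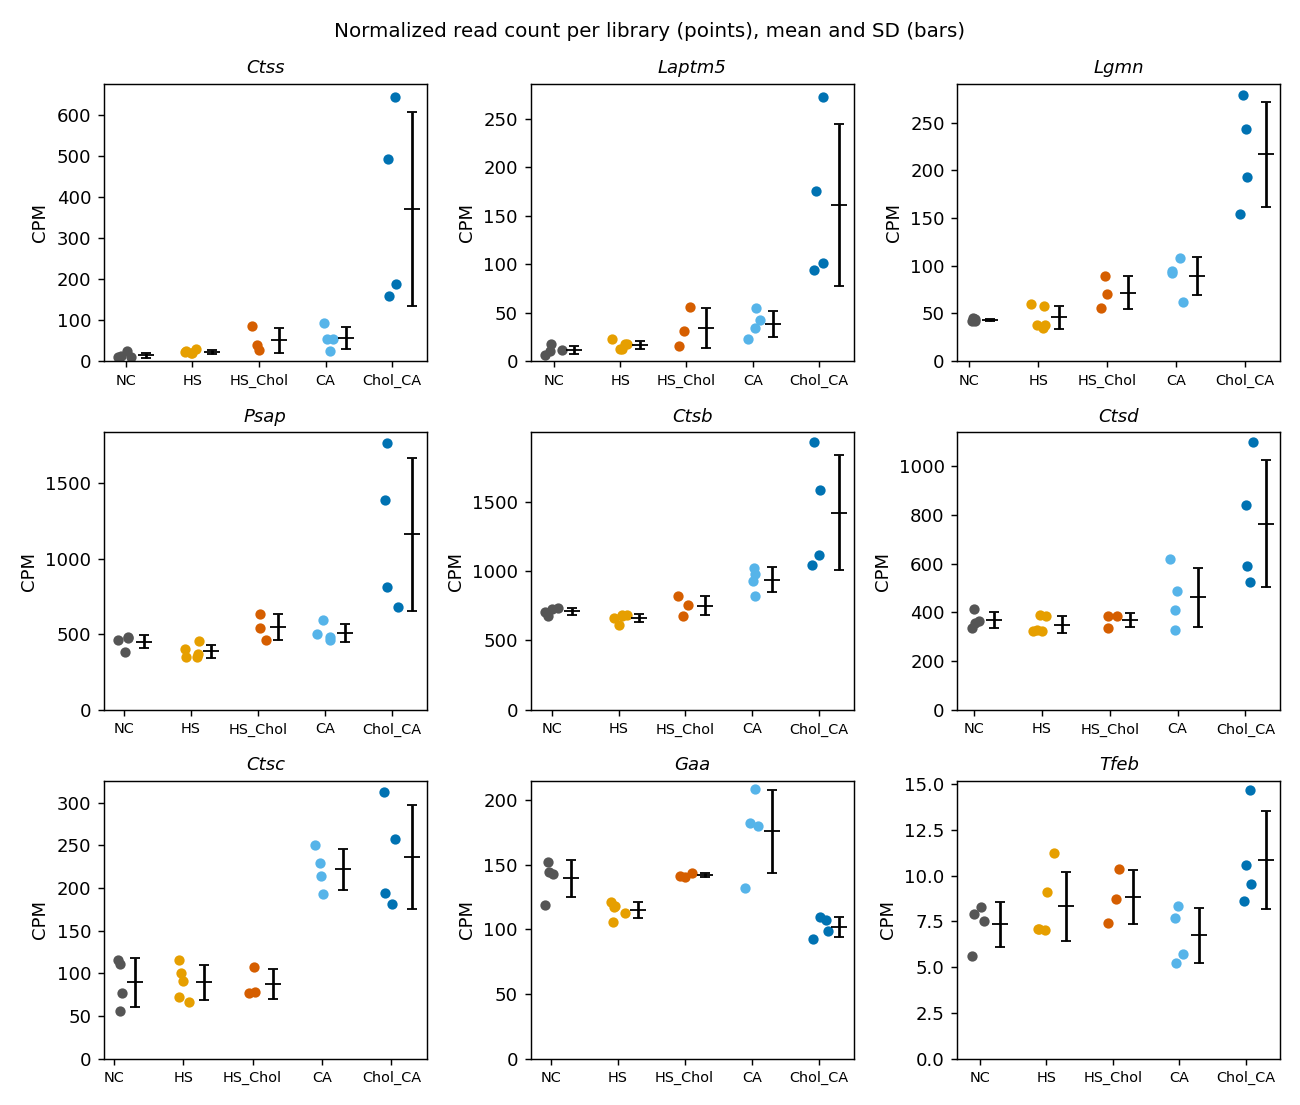
Normalized read count (CPM) of 9 lysosomal genes in every library (points) by diet, with the mean and SD beside them. Ctss, Laptm5 and Lgmn stepped up from NC to CA to Chol_CA with no overlap among these diets, while their HS_Chol libraries overlapped CA. Ctsc stood high on both cholic acid diets. Gaa had its lowest mean on Chol_CA, where its libraries overlapped those of HS.

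On CA without cholesterol the 5 members called were Ctss, Laptm5, Ctsc, Lgmn and Hexa. The log2 fold changes were 1.99 ± 0.47 for Ctss (adjusted p = 0.00896), 1.78 ± 0.41 for Laptm5 (0.0074), 1.31 ± 0.23 for Ctsc, 1.04 ± 0.22 for Lgmn (0.00404) and 0.69 ± 0.21 for Hexa (0.0447). All 4 CA libraries lay above all 4 NC libraries for each of them, and across all genes tested 7.23% were separated upward in this way. Hexa rested on all the libraries: leaving out any 1 of the 8 but CA_0 took its adjusted p to between 0.0717 and 0.171. The other 26 members were not called. Over the 12 libraries of positive length trend, 8 members were higher on CA than on chow and 2 lower (12.2% and 11.6% of all genes), the latter being Lamp2 (-0.32, adjusted p = 0.0115) and Mcoln1 (-0.30, adjusted p = 0.0276).

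On the sucrose diets no member passed edgeR's test against chow. On HS their log2 fold changes ran from -0.63 to 0.69, and the smallest p belonged to Ctsl, 463 to 608 CPM against 362 to 476 in NC (0.42 ± 0.12, adjusted p = 0.134; DESeq2 called it). On HS_Chol they ran from -0.64 to 1.84. The highest there were Ctss (1.84 ± 0.49, adjusted p = 0.0544) and Laptm5 (1.61 ± 0.43, adjusted p = 0.0542), and the lowest was Asah1 (-0.64 ± 0.18, adjusted p = 0.0692), 23.9 to 30.8 CPM against 35.7 to 46.7 in NC. DESeq2 called these 3 in the same directions.

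Cholesterol was added to 2 base diets, which share no library between the comparisons. Added to cholic acid, it came with 15 members higher and 1 lower (13.4% and 7.80% of all genes), at a median of 0.45. Added to sucrose, it came with 0 higher and 1 lower (1.60% and 0.651% of all genes), while 8 were higher and 2 lower at an unadjusted p under 0.05, and DESeq2 called 0 higher and 1 lower. The largest rises of Chol_CA over CA were Cd63 (2.96 ± 0.55), Ctss (2.73 ± 0.46), Laptm5 (2.06 ± 0.39), Ctsk (1.57 ± 0.45), Lgmn (1.28 ± 0.22) and Psap (1.19 ± 0.22). Tfeb was among the members called (0.69 ± 0.21, adjusted p = 0.0244) but was lost without CA_2 (0.123), CA_3 (0.127) or Chol_CA_1 (0.109). The rise of Ctsk was lost without CA_2 (0.0777), CA_3 (0.0725) or Chol_CA_0 (0.055), and was 2.24 without CA_0. That of Cd63 was 2.31 without Chol_CA_1. Ctsc was not called here. In the fit on the CA and Chol_CA libraries alone 8 members were higher (8.85% of all genes), and in the fit without the libraries of negative length trend 9 were (13.9% of all genes).

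The interaction, which asks whether cholesterol moved a gene differently on the 2 base diets, was called for 3 members (higher 2.47% and lower 3.53% of all genes). Gaa had the clearest one, at -1.09 ± 0.18 (adjusted p = 0.00072): with cholesterol it fell by 0.79 ± 0.13 on cholic acid and changed by 0.30 ± 0.13 on sucrose (not called). Ctsl had one of 0.67 ± 0.18 (adjusted p = 0.0287), as it fell by 0.59 ± 0.13 on sucrose, from 463 to 608 CPM to 331 to 386, and changed by 0.08 ± 0.12 on cholic acid. Asah1 had one of 0.88 ± 0.24 (adjusted p = 0.0311), with 0.48 ± 0.16 on cholic acid (called, but lost without any 1 of 5 libraries, CA_0, CA_1, CA_2, Chol_CA_0 or Chol_CA_1, at adjusted p-values from 0.0641 to 0.159) and -0.41 ± 0.17 on sucrose (not called). Ctsl shares 1742 exonic bases with a gene on the opposite strand, Gm47123, and its fall on sucrose was lost without HS_Chol_0 (adjusted p = 0.123). Its interaction had an adjusted p of up to 0.0975 when a single library was left out, and that of Asah1 up to 0.124, while that of Gaa was at most 0.00203 over all 16 such fits. The sucrose side of each interaction rests on HS_Chol and so on libraries with the difference in mitochondrial tRNA reads given above.

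Macrophage markers rose with the same diets. The summed level of 10 of them that are not lysosomal members (Adgre1, Csf1r, the C1q subunits and others) was lowest on chow (90.3 to 164 CPM) and highest on Chol_CA (866 to 2684). Between them lay HS with 131 to 282 CPM, CA with 190 to 614 and HS_Chol with 239 to 749. Of the 10, 8 were called higher on CA, 10 on Chol_CA, 3 on HS_Chol and 0 on HS. The shares of all genes called higher were 5.22%, 15.0%, 1.71% and 0.214%. Adgre1, which encodes the macrophage antigen F4/80, rose from 3.36 ± 1.53 CPM in NC to 47.9 ± 4.64 in Chol_CA (SD, n = 4 each). Csf1r, the receptor for the macrophage growth factor, rose from 16.8 to 168 CPM. No defining marker was at 0 in every library of a group: each of the 10, and Clec4f of Kupffer cells, had reads in every library. The Kupffer cell list (9 genes) had 8 members higher on CA and 7 on Chol_CA (5.22% and 15.0% of all genes). Its summed levels were 75.6 to 120 CPM in NC, 187 to 552 in CA and 593 to 1558 in Chol_CA.

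Of 12 markers of lipid-laden macrophages and monocytes, 9 were higher on Chol_CA than on chow and 1, Plin2, was lower, from 412 to 222 CPM. Of all genes, 15.0% were higher and 9.35% lower. Plin2, which coats lipid droplets and is also abundant in hepatocytes, made up most of the list's summed level on chow, and that sum on Chol_CA (606 to 1256 CPM) overlapped those on chow (537 to 621) and on CA (705 to 917). Gpnmb, itself a protein of macrophage lysosomes, had 6 reads in all NC libraries together (1 of them at 0) and a mean of 127 CPM in Chol_CA, against 1.22 in CA. Trem2, a lipid receptor of such cells, stood at 0.174 CPM in NC, 0.864 in CA and 12 in Chol_CA. Genes as weak on chow as Gpnmb and Trem2 could pass the filter on low counts through the Chol_CA libraries alone. The count of 9 may therefore be partly fixed by that filter. Markers of other cells moved on Chol_CA too. Of those tested, 3 of 3 neutrophil, 5 of 5 T and NK cell and 4 of 5 dendritic cell genes were higher than on chow. These lists hold 7, 8 and 6 genes, and the others did not pass the filter on low counts. Genes this weak could pass it through the Chol_CA libraries alone, so these counts were partly fixed by the filter. The neutrophil list summed to 0.143 to 2.27 CPM in NC and 11.1 to 73.6 in Chol_CA. Of the stellate cell and fibroblast genes, 5 of 9 were higher. The summed stellate list was 218 to 466 CPM in NC and 485 to 840 in Chol_CA, and the hepatocyte list 131860 to 133200 and 71120 to 84112. The part of each cell type in the changes of the members was not tested.

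How the members followed the macrophage level was read within diets, as the log2 change per doubling of the summed 10 markers in a fit that holds a mean for each diet. The slope was called for 4 members upward and 0 downward (5.98% and 1.07% of all genes). Ctss rose in proportion to the markers (1.09 ± 0.09, adjusted p = 4.22e-07), and Laptm5 nearly so (0.91 ± 0.09, adjusted p = 2.48e-06). Lgmn followed with a lower slope (0.46 ± 0.07, adjusted p = 0.000292) and Ctsb with 0.25 ± 0.07 (adjusted p = 0.0382; 0.241 without Chol_CA_1, 0.0951 without Chol_CA_3, 0.0893 without Chol_CA_2 and 0.0562 without CA_0). Cd63 had a slope as high as Laptm5, with a larger error (0.95 ± 0.29, adjusted p = 0.0517, or 0.0422 with RLE size factors). Psap (0.32 ± 0.11), Ppt1 (0.28 ± 0.09) and Gla (0.29 ± 0.12) did not pass edgeR's test. DESeq2 called the slopes of Ppt1 (adjusted p = 0.0175) and Psap (adjusted p = 0.0302), and not those of Cd63 and Gla. The slopes of Gusb (0.03 ± 0.09), Man2b1 (0.00 ± 0.08) and Glb1 (0.06 ± 0.08), all higher on Chol_CA, were near 0. Gaa (-0.16 ± 0.07) and Lamp2 (-0.18 ± 0.08) had negative slopes that did not pass. The macrophage level moved with the length trend of the libraries. In NC, CA, HS_Chol and Chol_CA the libraries of negative length trend had the highest levels, and in HS the lowest. The slopes therefore cannot be fully told apart from the length trend. With a length trend term, 366 genes were called upward in place of 753. Ctss, Laptm5 and Lgmn were still among them, and Ctsb was not (adjusted p = 0.218). In the libraries with a positive length trend, where the slope was called upward for 28 genes in all, Ctss was the 1 of the 4 that passed (Laptm5, adjusted p = 0.133; Lgmn, 0.0879; Ctsb, 0.557).

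**Figure D3:**
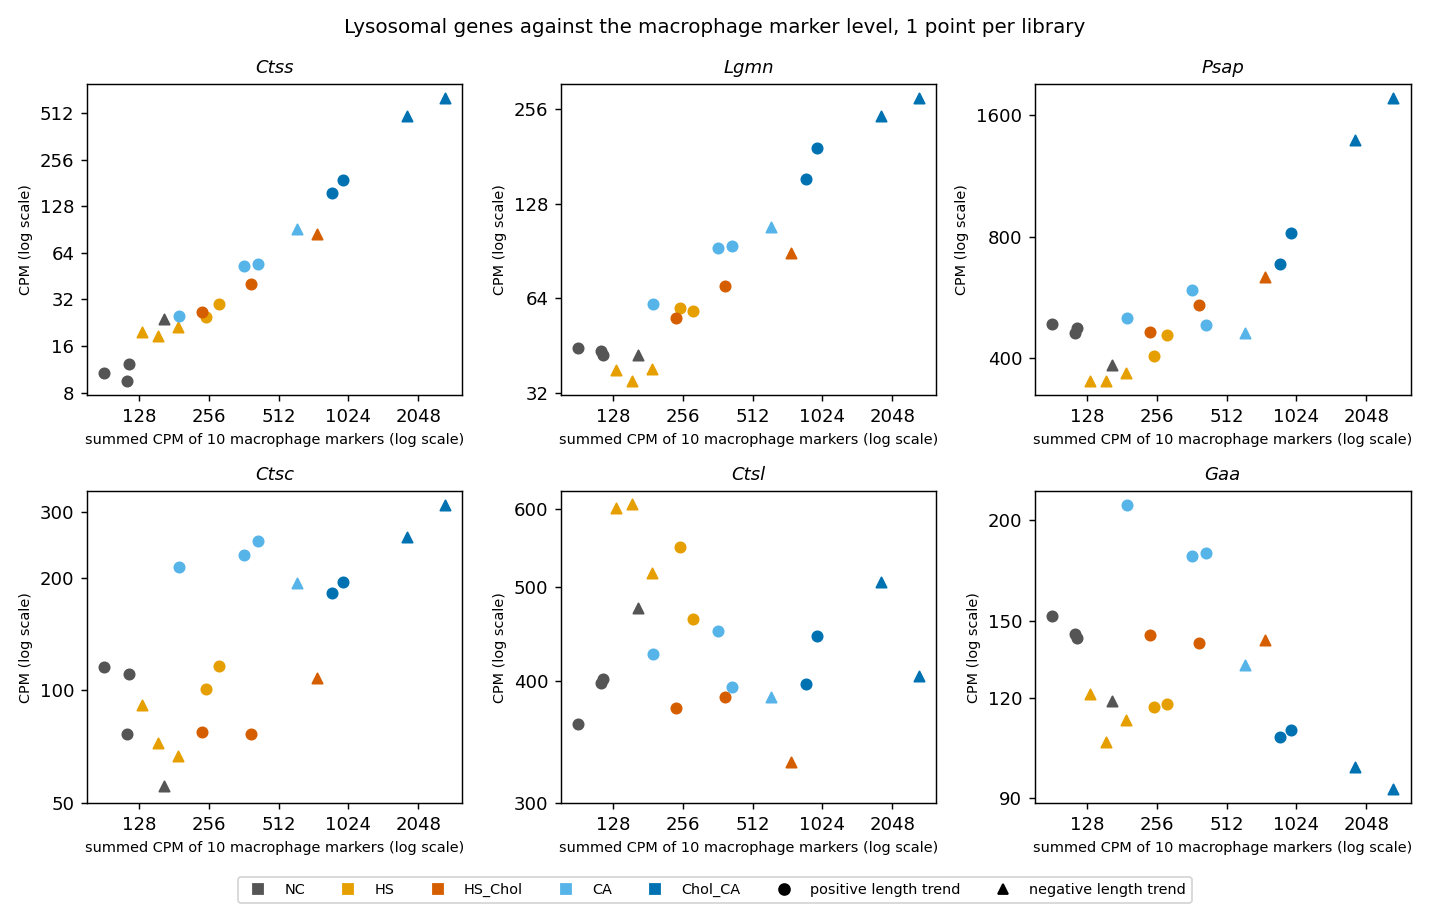
CPM of 6 lysosomal genes against the summed CPM of 10 macrophage markers, both on log scales, with 1 point per library, coloured by diet and shaped by the length trend. Ctss and Lgmn lie along 1 band over all diets, and Ctsc stands high in CA at marker levels that HS_Chol also reaches. Gaa is highest in 3 of the 4 CA libraries, and its lowest values are in Chol_CA, which overlaps HS.

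Set against the markers in the same library, the members differed. Ctss read 8.38 to 14.6 CPM per 100 CPM of the macrophage markers in NC, 13 to 14.9 in CA and 18.1 to 26.9 in Chol_CA, so in Chol_CA it was high even for the marker level. Laptm5 kept its ratio, at 5.46 to 11.2 in NC, 8.87 to 11.9 in CA and 9.61 to 10.8 in Chol_CA. Lgmn went from 25.8 to 49.4 in NC down to 10.4 to 19.9 in Chol_CA, and Ctsb from 448 to 803 down to 72 to 121, so both rose less than the markers did.

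With the macrophage level as a term in the fit, no member was called higher or lower on Chol_CA against chow, or against CA (0.484% higher and 0.627% lower of all genes there). The same fit called 10 genes higher and 25 lower of all 12595 on Chol_CA against chow (0.0794% and 0.198%). Marker levels of Chol_CA overlapped neither those of NC nor those of CA, so diet and macrophage level cannot be told apart in either comparison. The remaining log2 changes of the risers against chow had wide errors: 0.65 ± 0.37 for Ctss, 0.46 ± 0.36 for Laptm5, 0.62 ± 0.29 for Lgmn, 0.12 ± 0.44 for Psap and 0.75 ± 0.36 for Gusb. That of Gusb was close to the value without the term, 0.85.

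On CA the marker levels did not overlap those of chow either, but lay closer to them, and 1 member was called with the term (2.00% of all genes were higher and 2.50% lower). Gaa was higher on CA by 0.58 ± 0.15 (adjusted p = 0.0306), where without the term it was 0.33 ± 0.13. Ctss (0.15 ± 0.22), Laptm5 (0.26 ± 0.22) and Lgmn (0.25 ± 0.18) were no longer called on CA. Ctsc kept 0.97 ± 0.30 of its 1.31, with adjusted p = 0.0698. The interaction of cholesterol with the base diet was still called with the term (higher 1.48% and lower 2.62% of all genes) for Gaa (-0.95 ± 0.17, adjusted p = 0.00197) and Ctsl (0.72 ± 0.19, adjusted p = 0.0365), and not for Asah1 (0.78 ± 0.25, adjusted p = 0.0961). The marker levels of Chol_CA (866 to 2684 CPM) lay above every CA, HS and HS_Chol library, at most 749 CPM. The interaction therefore cannot be told apart from the macrophage level either.

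CA and HS_Chol had overlapping macrophage levels, and a direct comparison of them was added after the values were seen. None of the 10 macrophage markers and none of the 9 Kupffer cell markers differed between them by edgeR's test, though 9 of the 10 and 9 of the 9 read higher on CA, with median log2 fold changes of 0.20 and 0.35. Of the members, 2 were higher on CA and 0 lower (3.19% and 4.69% of all genes). Ctsc was higher by 1.34 ± 0.25 (2.54-fold, adjusted p = 0.00166), with every CA library above every HS_Chol library, and was called without any 1 of the 7 libraries. Asah1 was higher by 0.63 ± 0.18 (adjusted p = 0.0355), in overlapping groups, and was lost without any 1 of 5 libraries: HS_Chol_1 (0.143), CA_3 (0.13), HS_Chol_2 (0.129), CA_1 (0.0748) or CA_2 (0.0574). Ctss and Laptm5 were not called between them. Sucrose, cholesterol, cholic acid and the difference in mitochondrial tRNA reads all separate these 2 groups and cannot be told apart.

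**Figure D4:**
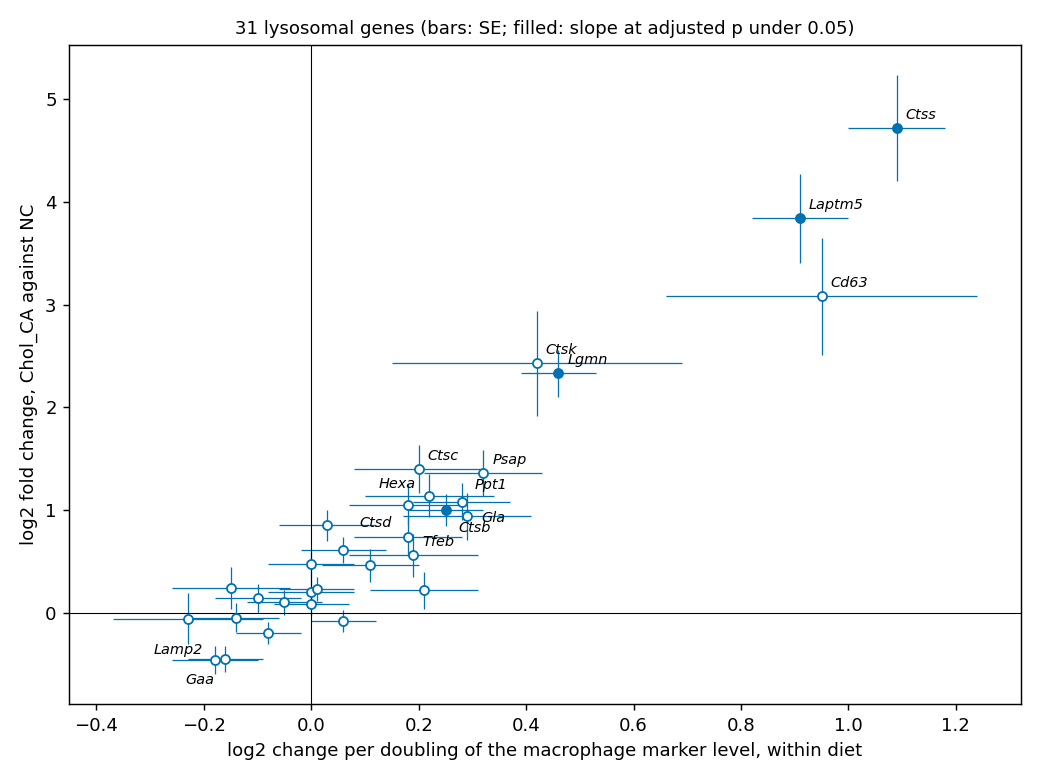
Log2 fold change on Chol_CA against chow of the 31 genes (vertical) against the log2 change per doubling of the macrophage level within diets (horizontal), with standard errors as bars and filled points for a slope at adjusted p under 0.05. Ctss, Laptm5 and Cd63 lie at upper right and Gaa and Lamp2 at lower left; both measures use the Chol_CA libraries.

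Other genes of the pathway were called on Chol_CA as well, where 15.0% of all genes were higher than on chow and 9.35% lower. Of 33 other lysosomal hydrolases, 12 were higher and 2 lower than on chow, and the higher ones included the nuclease-like Pld3 (1.59 ± 0.21) and the phospholipase Pla2g15 (1.36 ± 0.24). Of 26 other membrane proteins and cofactors tested, 8 were higher and 3 lower, with Cd68, a macrophage lysosomal glycoprotein, the furthest (4.36 ± 0.47), followed in adjusted p by the nucleoside transporter Slc29a3 (1.19 ± 0.21) and the channel Tpcn2 (1.70 ± 0.31). Of 15 other V-ATPase subunits 4 were higher, among them Atp6v1b2 (0.78 ± 0.13) and Atp6v0d2 (2.99 ± 0.64). Both of these subunits are isoforms of their position in the pump, and Atp6v0d2 is known from osteoclasts and macrophages, while the member Atp6v0d1 is the widespread form. The difference between these lists and the members was not tested.

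Of 12 genes of the TFEB family and its control, 2 were higher on Chol_CA than on chow, a share (16.7%) near that of all genes (15.0%). Tfec, a myeloid relative (3.29 ± 0.55, from 0.584 to 5.90 CPM), and Rragd, a GTPase that brings mTORC1 to the lysosome (1.91 ± 0.36), were the 2, and the relatives Tfe3 (-0.04 ± 0.12) and Mitf (0.47 ± 0.18) were not called. The slope of Tfec on the macrophage level was 0.95 ± 0.21 (adjusted p = 0.00615). At 0.584 CPM on chow, Tfec may have passed the filter on low counts only through libraries where it was higher. Its call may therefore not be independent of that filter. Of 11 genes of delivery to the lysosome, 2 were higher (18.2%, near the share of all genes), the adaptor Gga3 (0.59 ± 0.18) and the uncovering enzyme Nagpa (0.49 ± 0.15). Of 16 autophagy genes 0 were higher and 5 lower (15.0% and 9.35% of all genes), among them Atg7 (-0.58 ± 0.13), Optn (-0.45 ± 0.11) and Atg12 (-0.43 ± 0.13). Of 4 tested inhibitors of cathepsins and related proteases, Serpinb6a (1.88 ± 0.25) and cystatin B, Cstb (1.28 ± 0.37), were higher and Serpinb1a lower (-1.69 ± 0.43).

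On CA against chow, where 5.22% of all genes were higher and 4.61% lower, 4 of the 33 hydrolases were higher (12.1%) and 2 lower, among them Idua (0.81 ± 0.19) higher and the sulfatase Arsa (-1.02 ± 0.21) and Manba (-0.54 ± 0.13) lower. Cd68 was higher (2.05 ± 0.46), Atg7 (-0.55 ± 0.13) and Uvrag (-0.41 ± 0.13) were lower, and of the 15 V-ATPase subunits and the 12 genes of the TFEB family none was called.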

How the data were processed

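The deposited table holds raw read counts per gene symbol for whole liver, which the authors made with STAR 2.6.1c on mm10, per the submitters' processing notes; the strand counted is not given in the sources used here. Its column numbers start at 0 and the labels' at 1, so each of 20 columns has a diet but no known sample, and 3 columns that match no label were not used. HS_Chol has 4 labelled samples and 3 columns. The diet label of 1 sample titled HS reads normal chow; its column is not known, and it was kept as HS. Beyond their numbers nothing says that libraries are separate animals, so p-values measure the spread between these samples.

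Counts were scaled with TMM, filtered with filterByExpr (12595 genes kept) and fitted with edgeR 4.0.16 (robust quasi-likelihood, 1 mean per diet, R 4.3.3). Alternatives used DESeq2 1.42.0, RLE size factors, other filters (none, 1 CPM or 5 CPM in 3 libraries), only the diets compared, a length trend term or the libraries with a positive trend, a macrophage level term, the Kupffer cell list, and each library left out. The length trend is the slope, over genes, of a library's deviation in log2(CPM + 1) against log2 exonic length. The edgeR fit was tested on counts simulated from its own levels and spread. These held no length trend, so that test cannot speak to it. Coordinates are from GENCODE M21 (GRCm38). The named genes are all 31 members, with every library for the 12 largest changes called against NC and for Tfeb, and up to 3 called genes per pathway list and comparison by adjusted p; 1 gene that this rule names is not reported here. The members and lists were chosen with earlier results of these data known.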

Additional observations from a re-analysis of the deposited data

Results flagged for a closer look

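Over 124 groups of 4 or 5 libraries, 5 held a library far from the others of its diet by Dixon's test, where chance alone gives about 1 in 20. They were Ctsk in HS_4 (0.15 CPM), Gusb in NC_3 (17.9 CPM), Scarb2 in NC_3 (66.9 CPM) and CA_0 (75.1 CPM), and Lamp2 in Chol_CA_1 (377 CPM), and each was the lowest of its diet. NC_3, CA_0 and Chol_CA_1 all had a negative length trend. The effect of cholesterol differed between the base diets, by the interaction term, for Gaa (-1.09), Ctsl (0.67) and Asah1 (0.88) on the log2 scale.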

How the results depend on the processing

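No paired analysis was possible because the column numbers could not be tied to the labelled replicate numbers. With a macrophage level term, members called higher numbered 1 on CA and 0 on Chol_CA against chow, 0 on Chol_CA against CA and 1 in the interaction, and lower 0 on Chol_CA against chow or CA and 0 on HS_Chol against HS; the log2 changes on Chol_CA of Cd63 (-0.65), Gaa (0.11), Gla (-0.13) and Lamp2 (0.19) changed sign, none of them called. With a positive length trend only, 8 were higher and 2 lower on CA, 1 higher and 1 lower on HS_Chol, 9 higher and 2 lower on Chol_CA against CA, 0 lower on HS_Chol against HS, 7 higher on CA against HS_Chol and 1 in the slope on the macrophage level; Ctsa on Chol_CA against CA was called lower (-0.27). The length trend term gave 1 lower on CA, and 2 higher and 1 lower on HS_Chol. DESeq2 called 1 higher on HS, and 2 higher and 1 lower on HS_Chol. Only the diets compared gave 8 higher on Chol_CA against CA, 0 lower on Chol_CA against chow, and 1 higher in the interaction and on CA against HS_Chol. No filter on low counts gave 0 higher in the interaction, and the filter of 5 CPM, added after seeing the data since that of 1 CPM kept more genes than the one used, gave 7 in the slope. With 1 library left out, members higher ranged from 4 to 6 on CA, 16 to 17 on Chol_CA, 10 to 16 on Chol_CA against CA, 0 to 1 on HS, 0 to 2 on HS_Chol, 0 to 3 in the interaction, 3 to 7 in the slope and 1 to 3 on CA against HS_Chol, and members lower from 1 to 3 on Chol_CA and 0 to 1 on HS_Chol against HS. Ctsk, with 10 reads over the NC libraries, is where depth limits most. The causes of these changes were not tested.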
